A study of Mus musculus with 5 samples.

Results

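The miR-221 and miR-222 cluster comprised 4 of the 1122 mouse miRNAs on the array, namely mmu-miR-221-3p, mmu-miR-221-5p, mmu-miR-222-3p and mmu-miR-222-5p, which were taken by name as the arms of the Mir221 and Mir222 hairpins. BMDCs, dendritic cells grown from bone marrow of C3H/HeJ mice with rmGM-CSF and rmIL-4 and sorted on beads for CD11c, received flagellin at 100 ng/mL (3 arrays) or medium alone (2 arrays), and total RNA was measured after 24 h. C3H/HeJ mice carry a defective Tlr4, and flagellin is a ligand of TLR5. The labels do not say whether replicates came from separate cultures, so p-values measure only the spread between these samples, which may be technical. Feature Extraction detected between 292 and 298 mouse miRNAs per flagellin array and 301 to 317 per medium array, and the number of arrays limits the precision of every comparison.

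miR-221 and miR-222 are made from neighbouring hairpins of the X chromosome, and their 3p arms share a seed, the stretch near the 5′ end through which a miRNA pairs with its target mRNAs. They are known as repressors of the receptor tyrosine kinase Kit and of the cell cycle inhibitor Cdkn1b, and a decline of both accompanies red cell formation. NF-kB, the transcription factor on which TLR signalling converges, has been described as an activator of the cluster in tumour cells.

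The mature sequences are shown because a shared seed groups the 3p arms, while the bases after it set them apart. They come from the RefSeq annotation of GRCm38.p6, which held 3 of the 4 arms, and are written 5′ to 3′ with bases 2 to 8, the seed, in capitals. mmu-miR-222-5p is named only.
mmu-miR-221-3p: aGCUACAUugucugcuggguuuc
mmu-miR-222-3p: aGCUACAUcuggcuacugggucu
mmu-miR-1928: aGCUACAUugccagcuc
mmu-miR-221-5p: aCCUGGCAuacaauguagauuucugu
Of the mature names in that annotation, 3 carried the seed of the 3p arms, and the one outside the cluster was miR-1928. The leading 8 bases were identical between miR-221-3p and miR-222-3p, and 11 of 23 positions matched when both were aligned from the 5′ end without gaps. The longest stretch of miR-222-3p that a probe of miR-221-3p could read was 6 nt, and the longest stretch of miR-221-3p that a probe of miR-222-3p could read was also 6 nt.

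Both hairpins lie on the minus strand, Mir221 at chrX:19146294-19146388 and Mir222 at chrX:19146893-19146971 in GRCm38.p6, with 504 nt between them. The neighbouring RefSeq genes are the pseudogene Gm5383 and the lncRNA Gm14636. The hairpins are shown to place the arms that were measured, with capitals for the mature arms above and, at the 5′ side of Mir222, for the 18 nt that the longest probe of miR-222-5p reads.
Mir221 hairpin: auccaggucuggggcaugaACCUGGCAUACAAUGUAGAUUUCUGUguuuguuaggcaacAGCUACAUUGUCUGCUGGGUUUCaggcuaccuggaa
Mir222 hairpin: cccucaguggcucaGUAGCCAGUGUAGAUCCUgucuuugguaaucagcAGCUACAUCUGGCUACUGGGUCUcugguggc

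miR-221-3p, miR-222-3p and miR-222-5p were detected on all 5 arrays, and miR-221-5p was detected on none. The total gene signal, the background-subtracted intensity that Feature Extraction sums over the probes of a miRNA above 3 times their error, was 1604, 1468 and 1163 for miR-221-3p after flagellin and 1547 and 1334 in medium alone. The signals of miR-222-3p were 187.9, 166.9 and 134.7 after flagellin and 174.8 and 162.2 in medium alone. Those of miR-222-5p were 19.6, 19.0 and 13.0 after flagellin and 17.5 and 15.4 in medium alone. On all 3 arms flagellin replicate 1 was the brightest array and flagellin replicate 3 the dimmest, and the groups overlapped. Flagellin replicate 3 also had the lowest 75th percentile of the arrays, 210.7 against 246.1 to 293.0 on the others, so the signals were compared after division by each array's 75th percentile. Probes differ in how they bind, and signals of different arms therefore give no order of abundance.

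After scaling, the log2 values of miR-221-3p were 2.51, 2.32 and 2.47 after flagellin and 2.46 and 2.44 in medium alone. The flagellin values lay on either side of both medium values, with flagellin replicate 2 the lowest and flagellin replicate 1 the highest of the 5 arrays. The log2 fold change was −0.013 (standard error 0.088, n = 3 and 2 arrays), a 95% interval from −0.25 to 0.22 and adjusted p = 0.990 by limma over 307 miRNAs. On the linear scale this was a ratio of 0.991 with an interval from 0.843 to 1.16. In total RNA of a culture, fewer cells with a miRNA and less of it per cell cannot be told apart.

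For miR-222-3p, which shares the seed, the log2 values were −0.58, −0.81 and −0.64 after flagellin and −0.69 and −0.60 in medium alone. Flagellin replicate 2 was again the lowest array and flagellin replicate 1 the highest, and the groups overlapped. Its log2 fold change was −0.033 (standard error 0.10, n = 3 and 2 arrays, 95% interval from −0.30 to 0.23, adjusted p = 0.948 by limma). The ratio was 0.978, with an interval from 0.813 to 1.18.

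For miR-222-5p, the opposite arm of the Mir222 hairpin, the log2 values were −3.84, −3.94 and −4.01 after flagellin and −4.01 and −3.99 in medium alone. Flagellin replicates 1 and 2 were above both medium arrays, and flagellin replicate 3 was below both. The log2 fold change was 0.068 (standard error 0.084, n = 3 and 2 arrays, 95% interval from −0.15 to 0.29, adjusted p = 0.878 by limma), a ratio of 1.05 with an interval from 0.899 to 1.22. The intervals of all 3 arms included 0, and a change in either direction within their bounds cannot be told from none with these 5 arrays.

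**Figure D1:**
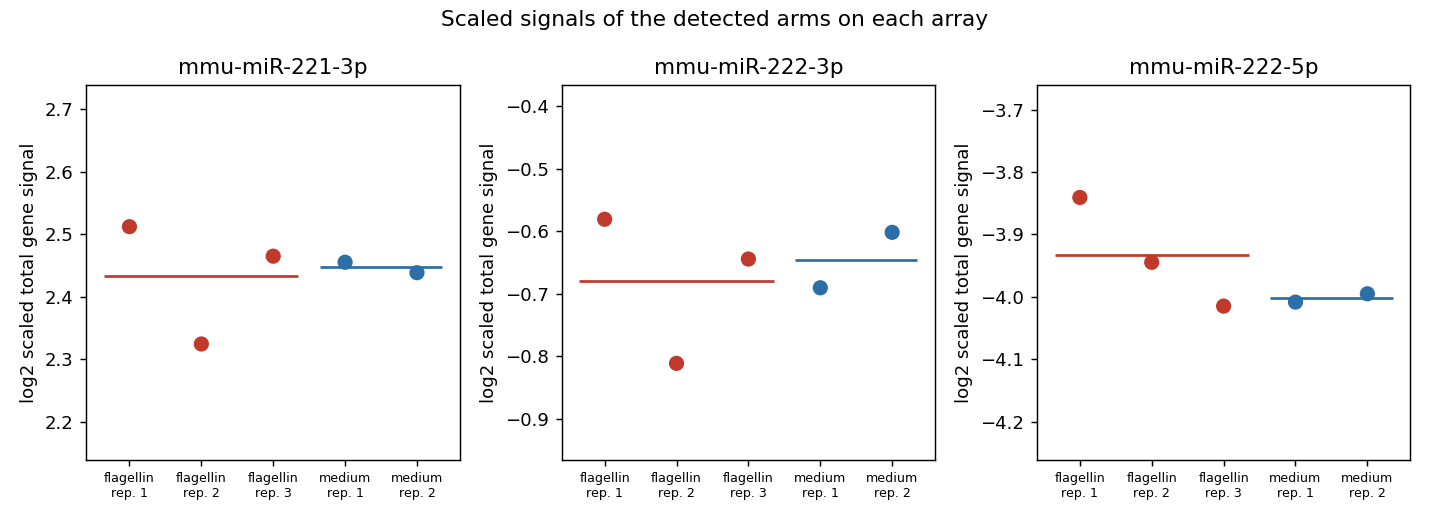
Log2 scaled total gene signals of the 3 detected arms on each array, flagellin in red and medium alone in blue, with lines at the group means. Each vertical axis spans the same log2 distance, the groups overlap for each arm, and flagellin replicate 2 is the lowest array for both 3p arms, at 2.32 and −0.81.

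None of the cluster's 3 tested arms passed an adjusted or an unadjusted p of 0.05, and none had all flagellin values on one side of both medium values. Over the 307 miRNAs detected on at least 2 arrays, limma's test gave an adjusted p under 0.05 for 2 miRNAs (0.651%) and an unadjusted p under 0.05 for 18 (5.86%). Single arrays moved these counts, to 71 unadjusted and 1 adjusted without flagellin replicate 3, 11 and 0 without flagellin replicate 1, and 7 and 0 without medium replicate 1, and the adjusted count was also 0, with 16 unadjusted, without flagellin replicate 2 or medium replicate 2. All flagellin values were above both medium values for 35 miRNAs (11.4%) and below both for 27 (8.79%). Ordered by p, the arms stood at places 274 (miR-221-3p), 245 (miR-222-3p) and 158 (miR-222-5p) of 307. The fold change without regard to sign was smaller than that of miR-221-3p for 21 miRNAs, smaller than that of miR-222-3p for 48 and smaller than that of miR-222-5p for 104, where the median over all tested was 0.10.

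The arms also varied little over the 5 arrays as a whole. The standard deviation of the log2 values was 0.070 for miR-221-3p, 0.092 for miR-222-3p and 0.072 for miR-222-5p, where the median over the 277 miRNAs detected on all arrays was 0.13. Of those 277, 18 had a smaller standard deviation than miR-221-3p, 58 a smaller one than miR-222-3p and 23 a smaller one than miR-222-5p.

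All 5 arrays were on 1 slide, and both medium arrays lay in array column 4 while the flagellin arrays lay in columns 2 and 3, so the treatment cannot be told apart from the array column. Array row held both groups. Within row 1, with flagellin replicates 1 and 3 and medium replicate 2, flagellin minus medium was 0.050 for miR-221-3p, −0.011 for miR-222-3p and 0.067 for miR-222-5p on the log2 scale. Within row 2, with 1 array of each group, it was −0.13, −0.12 and 0.064. The sign of miR-221-3p thus differed between the rows, while miR-222-3p and miR-222-5p each kept theirs. With array row as a block, the fold changes were −0.027, −0.058 and 0.066.

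The negative sign of both 3p arms rested on flagellin replicate 2. Without that array, the log2 fold change was 0.042 for miR-221-3p and 0.033 for miR-222-3p, and without medium replicate 2 it was 0.012 for miR-222-3p. The value of miR-222-5p was 0.022 without flagellin replicate 1 and 0.11 without flagellin replicate 3. Scaling to the 75th percentile over all mouse miRNAs, which moved the median fold change of all tested miRNAs from 0.0095 to 0.19, gave 0.17 for miR-221-3p, 0.15 for miR-222-3p and 0.25 for miR-222-5p. Relative to that shift, both 3p arms stayed below the median and miR-222-5p above it. For miR-221-3p, miR-222-3p and miR-222-5p in that order, the values were −0.039, −0.059 and 0.043 with no scaling and −0.014, −0.063 and 0.13 with quantile normalization. At the probe level they were −0.022, −0.0082 and 0.0025 with processed signals and −0.053, −0.056 and 0.030 with normexp and quantile normalization.

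Flagellin replicate 2 was also the array with the most signal from the stromal, endothelial and erythroid lists of miRNAs. It was also the highest array for the haematopoietic and myeloid list, with 22.9, 25.1 and 21.7 after flagellin and 23.7 and 22.8 in medium alone as summed scaled signals. Of its members, miR-142-3p (7.75) and miR-142-5p (3.12) were highest on flagellin replicate 2, and miR-342-3p (2.69) was lowest there. On medium replicate 1, the array with the next highest sum, miR-142-3p was at 7.63 and miR-142-5p at 2.28. On flagellin replicate 2, miR-223-3p (11.6) was below the other flagellin arrays (12.3 and 11.9) but above both medium arrays. The epithelial, lymphoid, muscle and neuron, and mast cell and granulocyte progenitor lists were not highest there. Of 8 stromal miRNAs, 3 were detected there and at most 1 on any other array, and their summed scaled signals were 0.020, 0.21 and 0 after flagellin and 0.020 and 0 in medium alone. The brightest was miR-199a-3p, and miR-214, miR-143 and miR-145 were undetected throughout. The endothelial pair was represented by miR-126-3p, at 0.045, 0.099 and 0.027 after flagellin and 0.044 and 0.020 in medium alone, while miR-126-5p was undetected on all arrays. miR-126-3p is also in the list of mast cell and granulocyte progenitors. The sum of that list came mostly from miR-10a-5p, at 0.69, 0.63 and 0.65 after flagellin and 0.64 and 0.67 in medium alone. The erythroid list, of which 3 miRNAs were on the array, gave 0.019, 0.058 and 0 after flagellin and 0 and 0 in medium alone, all from miR-451, while both arms of miR-144 were undetected on all arrays. The epithelial list gave 0.021, 0 and 0 after flagellin and 0.020 and 0 in medium alone, and the lymphoid list was detected on medium replicate 1 alone, at 0.017. The muscle and neuron list was highest on flagellin replicate 3, with 0.055, 0.065 and 0.070 after flagellin and 0.066 and 0.062 in medium alone, and the list of mast cell and granulocyte progenitors was highest on flagellin replicate 1, with 0.738, 0.726 and 0.679 after flagellin and 0.682 and 0.687 in medium alone. According to the study's methods, red cells were lysed in the marrow before culture, and cells attached firmly to the dish were left behind at harvest. The rest were sorted for CD11c. The part of cells other than dendritic cells in the values of miR-221-3p and miR-222-3p was not tested.

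The cluster ratio, the log2 signal of miR-221-3p minus that of miR-222-3p on the same array, is free of the scaling between arrays. It was 3.09, 3.14 and 3.11 after flagellin and 3.15 and 3.04 in medium alone, and its height depends on the probes. The highest and the lowest value were both from medium arrays and were 0.11 apart, so all flagellin values lay between them. The means were 3.11 ± 0.022 (SD, n = 3) and 3.09 ± 0.075 (SD, n = 2), a difference of 0.020 with p = 0.8 in a two-sided exact permutation test, which for 3 arrays against 2 cannot go below 0.1. The sign turned without medium replicate 2 (−0.033) and at the probe level with normexp (−0.046), and leaving out medium replicate 1 gave 0.073, flagellin replicate 1 0.030 and flagellin replicate 2 0.0082. Flagellin replicate 2, the lowest array for both 3p arms, had a ratio between those of the medium arrays. A ratio within an array shows only whether the arms changed unequally.

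The arm ratio of miR-222, the log2 signal of miR-222-3p minus that of miR-222-5p, was 3.26, 3.13 and 3.37 after flagellin and 3.32 and 3.39 in medium alone. Flagellin replicates 1 and 2 were below both medium arrays, and flagellin replicate 3 lay between them. The difference was −0.10 (means 3.25 ± 0.12, SD, n = 3, and 3.36 ± 0.053, SD, n = 2), with p = 0.4 in the two-sided exact permutation test and 0.8 after adjustment over the 2 ratios. Its sign was negative in every alternative run, from −0.16 without flagellin replicate 3 to −0.040 without flagellin replicate 2, and −0.063 without medium replicate 2. Both arms were detected on all arrays for 32 hairpins, and 9 of them had a smaller standard deviation of the arm ratio over the 5 arrays than miR-222, at 0.10 against a median of 0.16. The size of the difference between groups was smaller than that of miR-222 for 16 of the 32. For miR-221 no arm ratio can be given, since its 5p arm was undetected.

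**Figure D2:**
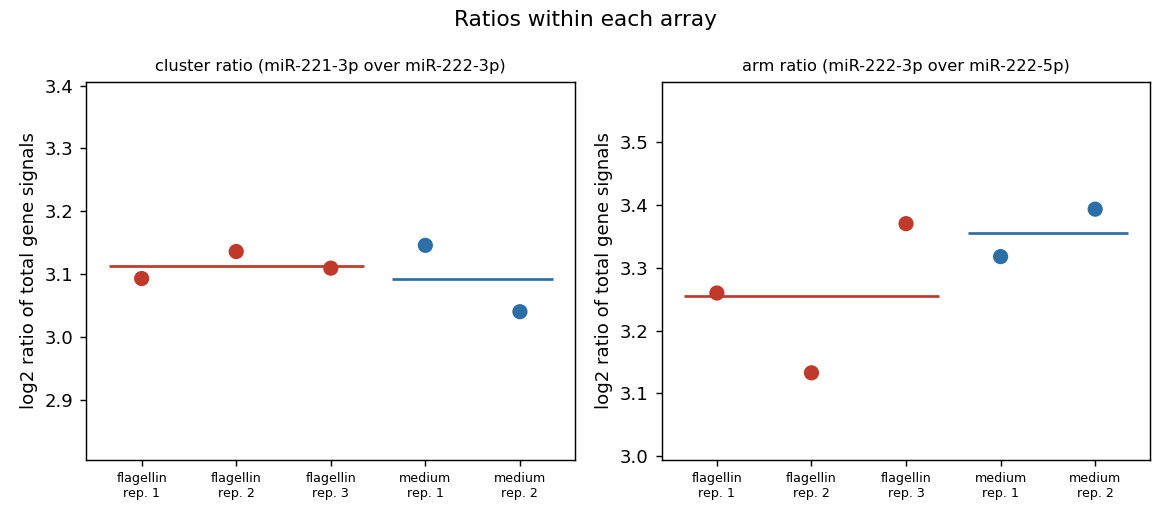
Cluster ratio and arm ratio of miR-222 on each array as log2 ratios of total gene signals, flagellin in red and medium alone in blue, with lines at the group means. The cluster ratios of the flagellin arrays, 3.09 to 3.14, lie between those of the medium arrays, and the arm ratios overlap.

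The 4 arms were read by 9 probes of 13 to 21 nt. miR-221-3p was read by probes of 19 and 20 nt, which read all but its leading bases, and both exceeded 3 errors on all arrays. The signals of the 20 nt probe were 1023, 911 and 717 after flagellin and 971 and 836 in medium alone, and those of the 19 nt probe were 580, 557 and 447 after flagellin and 577 and 498 in medium alone. Both probes gave the arrays the order seen in the total signal of miR-221-3p. miR-222-3p was read by probes of 13 and 14 nt, which begin after or at the last base of the seed. The 14 nt probe had 114.8, 101.7 and 81.3 after flagellin and 106.7 and 100.1 in medium alone, and the 13 nt probe 73.1, 65.3 and 53.5 after flagellin and 68.1 and 62.0 in medium alone. After scaling, the differences between flagellin and medium were −0.0051 and −0.018 for the 19 and 20 nt probes of miR-221-3p and −0.0098 and −0.047 for the 13 and 14 nt probes of miR-222-3p, with p from 0.9 to 1 in two-sided exact permutation tests.

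miR-222-5p was read by probes of 16, 17 and 18 nt that end at the same base and differ in length by single bases. The 18 nt probe carried most of its signal, with 14.9, 14.8 and 9.77 after flagellin and 13.7 and 11.2 in medium alone. The 17 nt probe had 4.73, 4.19 and 3.26 after flagellin and 3.84 and 4.19 in medium alone, between 3.08 and 4.07 times its error. At most 4 of its spots on an array were well above background, and on medium replicate 2 none was. The 16 nt probe stayed under 3 errors on all arrays and so did not count towards the arm. The differences after scaling were 0.027 for the 17 nt probe and 0.084 for the 18 nt probe, with p = 0.9 and 0.4 in two-sided exact permutation tests. For the 18 nt probe, leaving out flagellin replicate 1 or medium replicate 2 gave 0.042 and 0.041, and leaving out flagellin replicate 3 or medium replicate 1 gave 0.14 and 0.13. Over the 6 probes tested, the adjusted p was 1 for each.

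miR-221-5p was read by probes of 20 and 21 nt, neither of which passed 3 errors on any array. The 21 nt probe had signals of 1.97, 2.21 and 1.44 after flagellin and 2.94 and 2.40 in medium alone, with a mean error of 1.62. The 20 nt probe was below 0 on every array, from −1.18 to −0.51 after flagellin and at −0.087 and −0.17 in medium alone, with a mean error of 1.60. The flagellin signals of both probes were below both medium signals, but the group means differed by less than the mean error, and no spot of either probe was well above background. miR-221-5p therefore has no level or fold change here.

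**Figure D3:**
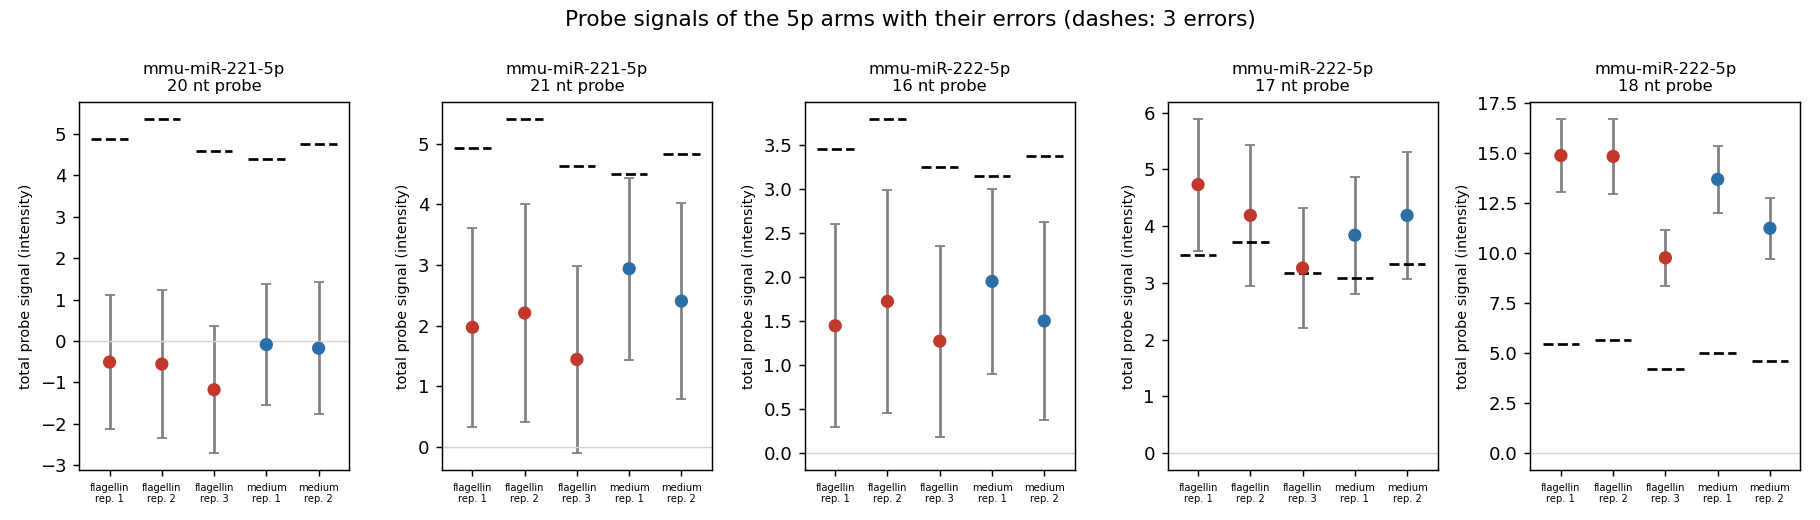
Total probe signals of the 5p arms on each array in intensity units, flagellin in red and medium alone in blue, with bars of 1 error and dashes at 3 errors, the limit for detection. Both probes of miR-221-5p and the 16 nt probe of miR-222-5p stay under the dashes on all arrays, and the 17 and 18 nt probes of miR-222-5p are above them.

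Among the other 276 miRNAs detected on all arrays, the profile most like that of miR-221-3p, by the root mean square difference of centred log2 values over the 5 arrays, was that of let-7d-5p (0.034), followed by miR-222-3p (0.037) and let-7a-5p (0.037), where the median was 0.13. For miR-222-3p the most alike were let-7d-5p (0.027), miR-467c-5p (0.036) and miR-30b-3p (0.036), and miR-221-3p came at place 4. The log2 fold changes of these neighbours were 0.0070 for let-7d-5p, −0.025 for let-7a-5p, 0.0047 for miR-467c-5p and −0.017 for miR-30b-3p.

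The third miRNA with the seed, miR-1928, was undetected on all 5 arrays. miRNAs that respond to TLR and NF-kB signalling were set beside the cluster, and of 21 on the array 12 were tested, with a median log2 fold change of 0.055 where that of all 307 was 0.0095. Of the 12, 9 had a log2 fold change above 0 and 3 below 0. This list was chosen with earlier results of these data known. By limma, 0 of the 12 had an adjusted p under 0.05, and 3 had an unadjusted p under 0.05, all with higher values with flagellin, where the share over all 307 was 5.86% and moved with single arrays as given above. These were miR-155-5p at 0.35 (95% interval from 0.10 to 0.61), miR-132-3p at 0.35 (0.11 to 0.59) and miR-146a-5p at 0.28 (0.058 to 0.51). Without scaling, none of the 3 had an unadjusted p under 0.05 by limma (0.117, 0.209 and 0.264), at log2 fold changes of 0.33, 0.32 and 0.26. The unadjusted p of miR-155-5p by limma was 0.093 without medium replicate 1 (log2 fold change 0.27) and 0.084 with the replicate number as a block, the replicate block (0.33), and that of miR-132-3p was 0.086 without medium replicate 2 (0.29). That of miR-146a-5p was 0.051 without flagellin replicate 1 (0.23), 0.106 and 0.086 without medium replicates 1 and 2 (0.27 and 0.30), 0.066 with the replicate block (0.30) and 0.063 with array column as a random block (0.28). At the probe level with normexp and quantile normalization, the log2 fold changes of miR-155-5p, miR-132-3p and miR-146a-5p were 0.27, 0.15 and 0.17. With scaling over all mouse miRNAs, which moved the median, they were 0.54, 0.53 and 0.47. Their differences from the cluster's arms were not tested. The brightest of the list, miR-21-5p and miR-146b-5p, stood at 0.057 and 0.054. With single arrays left out, miR-21-5p lay between 0.015 (without flagellin replicate 1) and 0.13 (without flagellin replicate 3), and miR-146b-5p between 0.0013 (without medium replicate 2) and 0.11 (without medium replicate 1). Quantile normalization turned the sign of miR-21-5p (−0.098). The probe level with normexp and quantile normalization together turned that of miR-146b-5p (−0.017), which was 0.12 with quantile normalization alone. Both miRNAs were higher with scaling over all mouse miRNAs (0.24 and 0.23).

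Of 10 other miRNAs listed as repressors of Kit or Cdkn1b, 8 were tested, with a median of 0.091, and limma gave 0 of them an adjusted or an unadjusted p under 0.05. The brightest of them, miR-24-3p and miR-34a-5p, stood at 0.17 and −0.0023. miR-24-3p was at 0.068 with quantile normalization, 0.35 with scaling over all mouse miRNAs, 0.10 without medium replicate 1 and 0.24 without medium replicate 2. At the probe level with normexp and quantile normalization it was at 0.21, where limma's unadjusted p was 0.027 and the adjusted p 0.576. The sign of miR-34a-5p turned without flagellin replicate 2 (0.0053), flagellin replicate 3 (0.028) or medium replicate 2 (0.043). Of 6 haematopoietic and myeloid miRNAs, 4 were detected on all arrays, with a median of 0.041. miR-223-3p stood at 0.096, at −0.046 with quantile normalization and at 0.28 with scaling over all mouse miRNAs. At the probe level with normexp and quantile normalization it was at 0.016. miR-223-5p and miR-150-5p were undetected. miR-142-3p stood at −0.25 (95% interval from −0.83 to 0.33), and its value moved with single arrays, to −0.44 without flagellin replicate 2 (unadjusted p = 0.033 and adjusted p = 0.686 by limma), −0.11 without flagellin replicate 3 and −0.16 without medium replicate 1. It was −0.071 with scaling over all mouse miRNAs and −0.11 with the replicate block.

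**Figure D4:**
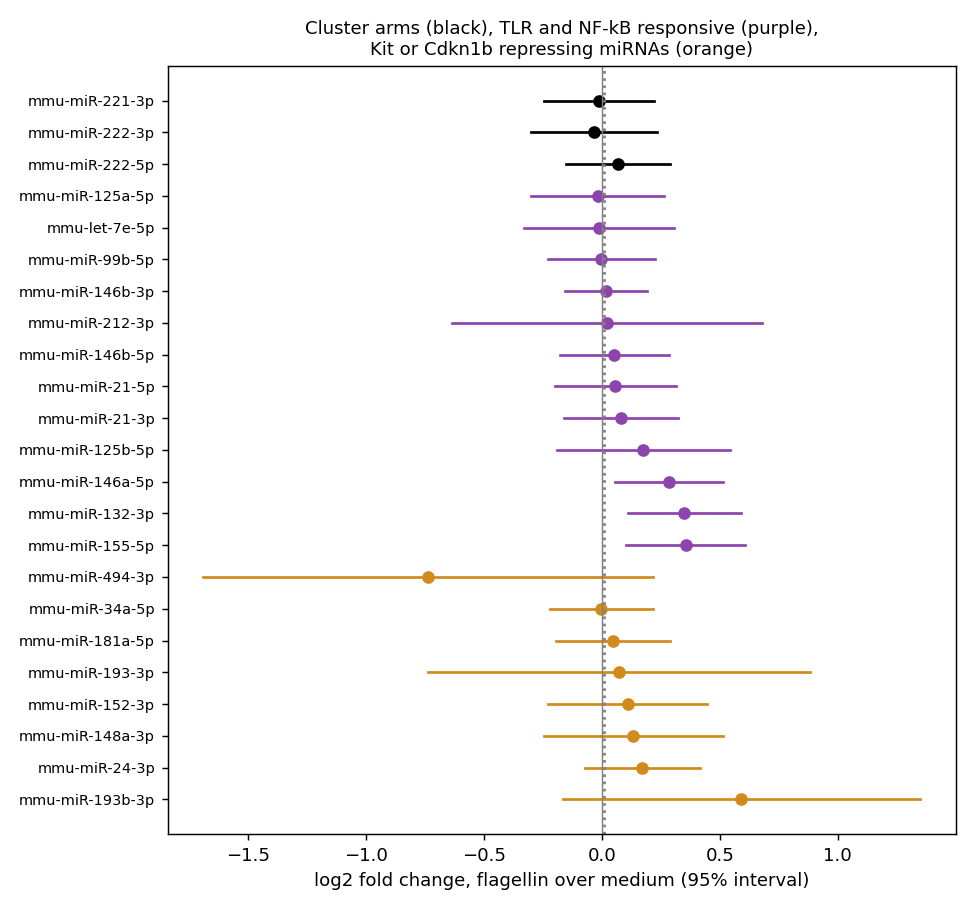
Log2 fold changes of flagellin over medium alone with 95% intervals from limma for the 3 tested arms (black), 12 TLR and NF-kB responsive miRNAs (purple) and 8 miRNAs listed as repressors of Kit or Cdkn1b (orange), with a solid line at 0 and a dotted line at the median of all tested. The intervals of the cluster's arms include 0, and those of miR-146a-5p, miR-132-3p and miR-155-5p lie above it with the scaling used here, while without scaling limma's unadjusted p of these 3 was 0.264, 0.209 and 0.117.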

How the data were processed

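Total RNA was labelled with Cy3 and hybridized to 1-colour Agilent mouse miRNA arrays. The authors extracted the deposited intensity values with Feature Extraction 10.7.3.1, including the detection call (score of 0 or 1). The log2 values that the authors deposited are log2 total gene signals less a constant of each array. Signals were scaled to the 75th percentile of the array, taken over 277 mouse miRNAs that all 5 arrays detected, floored at 0.0121 and log2 transformed. miRNAs detected on at least 2 arrays (307) were tested with limma 3.58.1 under R 4.3.3 with Benjamini-Hochberg adjustment. Ratios and probes were compared with two-sided exact permutation tests in Python 3.11.15 with numpy 2.4.6 and pandas 2.3.3, and figures were drawn with matplotlib 3.10.9. The members and lists were chosen with earlier results of these data known. Fold changes of named miRNAs are given for the tested arms, list members with an unadjusted p under 0.05, and the 3 profiles most like each 3p arm. They are also given for up to 2 of the brightest tested miRNAs of each list. miR-1928 and further list members are named for their sequence, detection or signal. Sequences are from RefSeq (GRCm38.p6), and the deposited files name no genome build. Alternatives covered scaling, floor, filter, test, background correction, detection rule, blocks and left-out arrays.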

Additional observations from a re-analysis of the deposited data

How the results depend on the processing

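No alternative gave an arm of the cluster an adjusted or an unadjusted p under 0.05. Over all settings, the log2 fold change lay between −0.053 and 0.17 for miR-221-3p, −0.082 and 0.15 for miR-222-3p and 0.0025 and 0.25 for miR-222-5p. Of 60 such values 55 kept their sign, and the others are those given with the text for scaling over all mouse miRNAs (0.17 and 0.15) and for left-out arrays. This count is no measure of stability, since several settings could not move the fold changes of the arms. These were the lower floor, the filters, a t-test in place of limma and limma's trend option. The replicate block gave the same fold changes as leaving out flagellin replicate 3. With each array left out, the range was −0.052 to 0.042 for miR-221-3p, −0.082 to 0.033 for miR-222-3p, and 0.022 to 0.11 for miR-222-5p. The cluster ratio changed sign at the probe level with normexp (−0.046, p = 0.4 in the two-sided exact permutation test), and ranged from −0.033 to 0.073 with each array left out. Left-out arrays also turned the sign of probes, with ranges of −0.038 to 0.041 and −0.072 to 0.041 for the 19 and 20 nt probes of miR-221-3p, −0.053 to 0.059 and −0.10 to 0.017 for the 13 and 14 nt probes of miR-222-3p, and −0.13 to 0.19 for the 17 nt probe of miR-222-5p. The cause of these changes was not tested. Where 1 medium array remained, its spread was taken to equal that between flagellin arrays.

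The number of miRNAs past an adjusted p of 0.05, which is 2 in the text, was 4 with the authors' values and with the floor divided by 10, 3 at the probe level with processed signals, and 1 with miRNAs detected on all 5 arrays, no filter, limma's trend option and array column as a random block. limma's test gave 0 with scaling over all mouse miRNAs, without scaling and with quantile normalization, where 14, 8 and 18 had an unadjusted p under 0.05. It also gave 0 at the probe level with normexp and quantile normalization, with no detection rule, the array row block and the replicate block. Under these settings, 23, 17, 15 and 39 had an unadjusted p under 0.05. With each flagellin array left out it gave 0 to 1, where 11 to 71 had an unadjusted p under 0.05. The labels do not say whether the replicate numbers pair the samples. Across miRNAs, deviations from the group mean correlated at 0.047 and 0.0073 between flagellin and medium arrays of the same number. The 2 medium arrays deviate by equal and opposite amounts, so these correlations cannot decide whether samples were paired. With the replicate block the fold changes were −0.029 for miR-221-3p, −0.050 for miR-222-3p and 0.11 for miR-222-5p.

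Among 377 values of the other named miRNAs, some of them from filters or tests that could not change a fold change, 50 changed sign, none of them called. With scaling over all mouse miRNAs these were let-7a-5p (0.16), miR-200c-3p (0.10), miR-206-3p (0.16), miR-30b-3p (0.16) and miR-34a-5p (0.18). With no scaling they were let-7d-5p (−0.019), miR-10a-5p (−0.015) and miR-467c-5p (−0.021). With quantile normalization they were miR-10a-5p (−0.056), miR-200c-3p (0.20), miR-21-5p (−0.098), miR-223-3p (−0.046) and miR-30b-3p (0.065). At the probe level with processed signals they were let-7a-5p (0.013), miR-200c-3p (0.15) and miR-34a-5p (0.044). At the probe level with normexp and quantile normalization they were let-7d-5p (−0.082), miR-10a-5p (−0.031), miR-146b-5p (−0.017), miR-200c-3p (0.012), miR-34a-5p (0.0078) and miR-467c-5p (−0.021). With the replicate block they were let-7d-5p (−0.014), miR-200c-3p (0.051), miR-34a-5p (0.028) and miR-467c-5p (−0.027), and with the array row block let-7d-5p (−0.014), miR-10a-5p (−0.0033) and miR-467c-5p (−0.017). miR-200c-3p was at 0.039 with no detection rule and miR-34a-5p at 0.0042 with the authors' values. With each array left out, the ranges were −0.061 to 0.024 for let-7a-5p, −0.035 to 0.061 for let-7d-5p, −0.028 to 0.045 for miR-10a-5p, −0.44 to 0.27 for miR-200c-3p, −0.099 to 0.074 for miR-206-3p, −0.063 to 0.049 for miR-30b-3p, −0.048 to 0.043 for miR-34a-5p and −0.040 to 0.058 for miR-467c-5p.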

Other observations

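Lists of other cell types held few detected miRNAs. Of 6 epithelial miRNAs, 5 were undetected on all arrays, and miR-200c-3p was detected on flagellin replicate 1 and medium replicate 1. Of 5 muscle and neuron miRNAs, 4 were undetected, and miR-206-3p had a log2 fold change of −0.023. Of 3 lymphoid miRNAs, 2 were undetected, and miR-181c-5p was detected on medium replicate 1 alone. In the list of mast cell and granulocyte progenitors, miR-10a-5p stood at 0.011 and miR-126-3p at 0.71 (95% interval from −1.07 to 2.48), while miR-196b-5p was undetected. miR-199a-3p stood at 1.06 (from −1.99 to 4.11). miR-451 was undetected on both medium arrays, so its log2 fold change depended on the floor, at 0.97 (from −0.90 to 2.84), 3.18 with the floor divided by 10 and 4.41 with the authors' values, and that of miR-199a-3p, undetected on 1 medium array, was 1.62 and 1.96 under the same changes. These and miR-126-3p were highest on flagellin replicate 2, and without that array the log2 fold changes were 0.0013 for miR-199a-3p, 0.32 for miR-451 and 0.20 for miR-126-3p. The value of miR-126-3p was also 0.15 without medium replicate 2, 1.26 without medium replicate 1 and 1.15 without flagellin replicate 3. Its unadjusted p by limma, 0.346, was 0.041 with array row as a block (log2 fold change 0.93, adjusted p = 0.881). At the probe level with processed signals it was 0.033 (0.71, adjusted p = 0.657). With normexp and quantile normalization at the probe level, the log2 fold change of miR-126-3p was 0.16 (unadjusted p = 0.198 by limma). Those of miR-199a-3p and miR-451 were 0.22 and 0.093 with the same setting. With no detection rule, miR-451 stood at 0.57.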
